A study of Mus musculus with 3 samples.

Results

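The genes described here are 10 genes of cholinergic and motor neuron identity, chosen by symbol from the 22976 genes of the count table. They comprise 5 genes of acetylcholine handling (Chat, Slc18a3, Slc5a7, Ache and Bche) and 5 transcription factor genes of motor neurons or their progenitors (Mnx1, Lhx3, Lhx4, Isl2 and Pax6). A row was present for 9 of the 10. Slc5a7 had no row, and is taken as 0 reads in every library: the deposited RPM values leave room for at most 2 reads in all unlisted genes of a library together.

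Messenger RNA was sequenced from NSC-34, a mouse hybrid line in which embryonic spinal cord cells enriched in motor neurons were fused with neuroblastoma cells. There were 2 libraries of clones described as spontaneously resistant to PR20, both with a wild-type background and with 10 µM PR20 for 3 weeks as their treatment. PR20 is a peptide of repeated proline-arginine units, which are also translated from the expanded C9ORF72 repeat of human disease. The third library came from wild-type NSC-34 cells without treatment, called the control here. The libraries held 11389663 reads in clone 1, 11307034 in clone 2 and 11700755 in the control. The labels do not say how the clones were cultured before RNA extraction. A p-value here reflects only how far the clone libraries spread, possibly for technical reasons. Both clone libraries share PR20 treatment, resistance and being clones, and the control is labelled with none of these. The parts of these in a difference between clones and control cannot be told apart. The control had no replicate.

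In a cholinergic neuron, choline acetyltransferase (Chat) makes acetylcholine, the vesicular transporter (Slc18a3) loads it into synaptic vesicles, and the high-affinity choline transporter (Slc5a7) takes up choline for new synthesis. Acetylcholinesterase (Ache) and the less selective butyrylcholinesterase (Bche) break it down. In the embryonic spinal cord, Pax6 patterns ventral progenitors, the LIM homeodomain factors Lhx3 and Lhx4 act as motor neurons are born, and Isl2 and Mnx1 mark postmitotic motor neurons.

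The cholinergic programme of the control was uneven, and its most vesicle-specific part was almost without reads in the clones. In bulk RNA, fewer cells of a kind and less RNA per cell cannot be told apart. Levels are given as CPM, the reads of a gene scaled to a common library size with TMM factors, and as CPM per kb of exon where genes are compared with each other. In the control, Ache stood highest of the 10 members at 9.96 CPM per kb, followed by Slc18a3 at 3.89, Isl2 at 3.22, Pax6 at 2.22 and Bche at 1.96 CPM per kb. The 95% counting intervals of Slc18a3 (3.21 to 4.68) and Isl2 (2.57 to 3.98) overlapped, as did those of Pax6 (1.98 to 2.48) and Bche (1.67 to 2.29), so the order within these pairs is not established. Lhx4 at 0.290 and Chat at 0.124 CPM per kb followed, also with overlapping intervals, and Mnx1 and Lhx3 had 1 read each. In the clones, Ache (4.44 in clone 1 and 4.06 in clone 2) and Pax6 (3.52 and 4.18) were highest. Ache led in clone 1 with an interval clear of that of Pax6, while in clone 2 the intervals of the pair overlapped. Next came Bche (2.43 and 2.72) and Isl2 (1.54 and 1.35 CPM per kb), while Slc18a3 was at 0.111 and 0.0372 CPM per kb. Intervals and floors cover counting error only, since reads that carry no molecular identifier can be copies of 1 molecule.

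**Figure D1:**
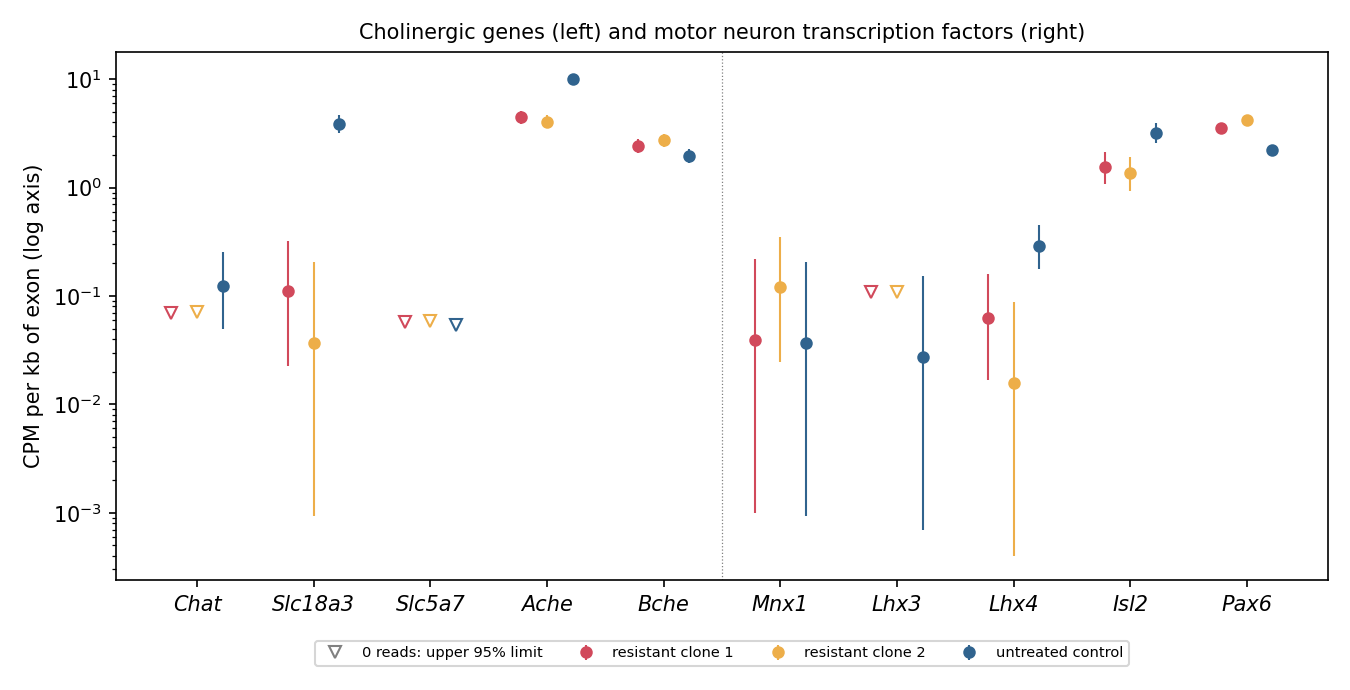
Level of each of the 10 genes as CPM per kb of exon on a log axis, with clone 1, clone 2 and the control from left to right. Points are single libraries with 95% Poisson intervals, and open triangles give the upper 95% limit of a gene with 0 reads. Slc18a3 was at 0.111 and 0.0372 CPM per kb in the clones against 3.89 in the control, while Pax6 and Bche were higher in both clones than in the control. The intervals of Bche in clone 1 and in the control overlap.

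Of the 10 members, 6 had enough reads for the test, which was edgeR's quasi-likelihood F test across 13705 genes. All 6 passed an adjusted p of 0.05: Slc18a3, Lhx4, Ache and Isl2 were lower in the clones, and Pax6 and Bche were higher. This has to be read against the whole table, where 50.1% of tested genes passed, 25.8% as lower and 24.3% as higher, and where both clones lay on the same side of the control in 88.5% of genes. Slc18a3 and Lhx4 entered the test through their reads in the control, so a difference was built into their being tested. With 1 control, the spread comes from the pair of clones alone. Without the filter on low counts edgeR called 4 of 22976 genes and 0 of the 9 members with a row, of which 5 had an unadjusted p under 0.05, and the adjusted p of the 6 genes then lay between 0.0719 and 0.188. The authors' deposited table, made with DESeq2, lists an adjusted p for the same 6 genes, and 3 of them, Slc18a3, Ache and Pax6, are under 0.05 there, against 19.8% of all genes with an adjusted p in that table.

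**Figure D2:**
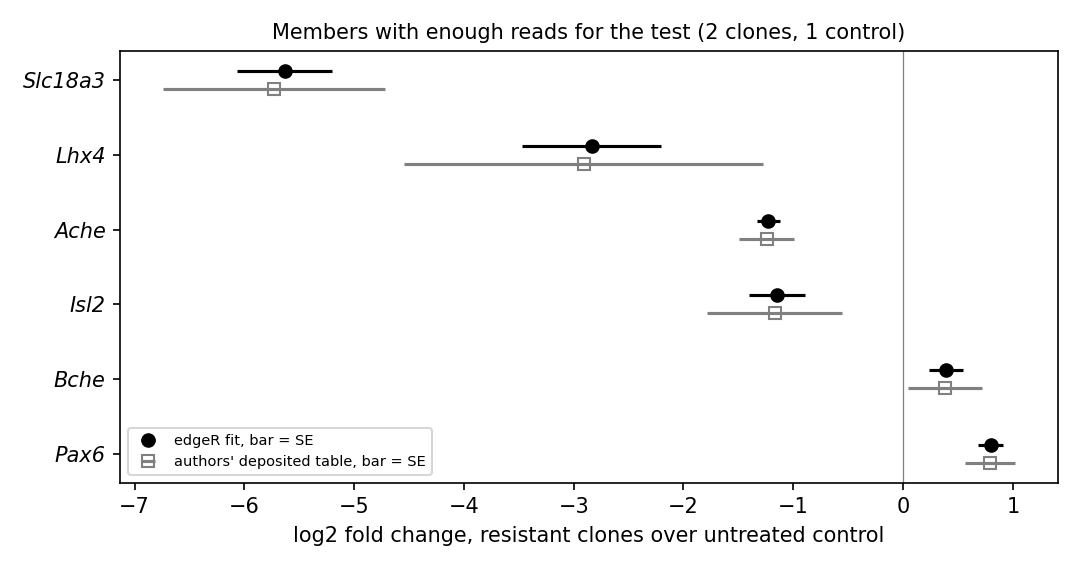
Log2 fold change of the clones over the control for the 6 genes with enough reads, from the edgeR fit (filled circles) and from the authors' deposited table (open squares). Bars are standard errors. Slc18a3, Lhx4, Ache and Isl2 lie left of 0 and Bche and Pax6 right of 0 in both, and the bars of the deposited table are the longer ones.

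Slc18a3, the gene of the vesicular acetylcholine transporter, had 3 reads in clone 1 and 1 read in clone 2, against 113 reads in the control. This corresponds to 0.267 and 0.0898 CPM in the clones and 9.39 CPM in the control, so the groups do not overlap and the clone values sit at the level of 3 reads (0.267 and 0.269 CPM) or below it. The fitted log2 fold change was -5.63 ± 0.43 (SE; edgeR adjusted p = 2.46e-08). Because so few clone reads remain, the size is loose: the pooled clones were 52.5-fold lower by counts, with a 95% counting interval of 20-fold to 196-fold. The log2 fold change was -6.55 without clone 1 and -5.08 without clone 2. Only 0.781% of tested genes had a lower log2 fold change.

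Chat, which encodes the enzyme that makes acetylcholine, had 0 reads in both clones and 7 reads, or 0.582 CPM, in the control. The control level was 4.34-fold above a floor of 3 reads over both clones pooled, and the 95% counting limit that also covers the error of the control's 7 reads was 2.68-fold lower in the clones. It had too few reads for the filtered test, and without the filter its edgeR adjusted p was 0.171. Slc5a7 had 0 reads in both clones and in the control, where 3 reads would have been 0.267, 0.269 and 0.249 CPM. The 3 genes that define a cholinergic terminal were therefore near or below the detection limit in the clones, and in the control Slc18a3 was the only one with more than 7 reads.

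Slc18a3 lies inside Chat, an arrangement known as the cholinergic gene locus. On GRCm38, Chat spans chr14:32408203-32465989 on the minus strand (ENSMUSG00000021919.8), and Slc18a3 is a single exon at chr14:32462438-32464850 on the same strand (ENSMUSG00000100241.1). No annotated Chat exon overlaps that exon. The nearest Chat exons are 956 bases upstream and 395 bases downstream of it, so reads from annotated exons of the 2 genes are separable by position. Whether unspliced Chat RNA added reads to the Slc18a3 exon was not tested. Gm2990, an antisense gene whose span overlaps the 5′ end of Chat, shares no exon bases with it. Gm2990 had 0 reads in both clones and 39 reads in the control (edgeR adjusted p = 3.98e-06). Gm2990 entered the test through its reads in the control, so a difference was built into its being tested. Its control level was 24.2-fold above the same pooled floor, and the corresponding 95% counting limit was 18.7-fold lower in the clones.

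**Figure D3:**
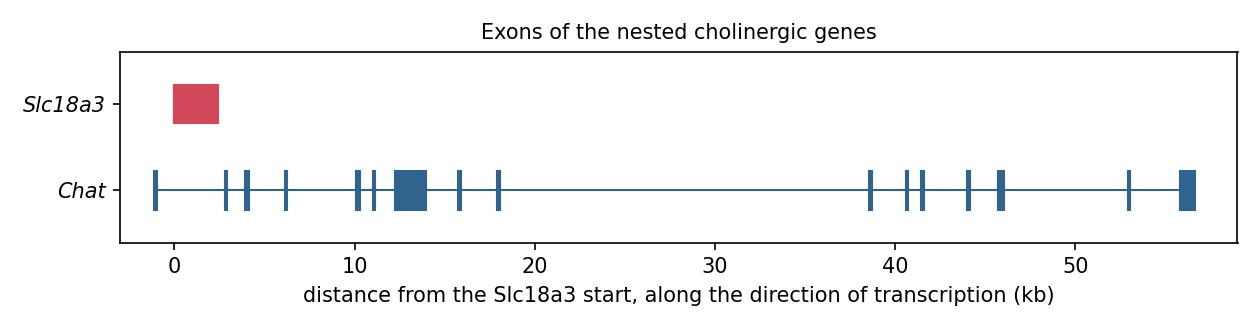
Annotated exons of Slc18a3 (upper row) and Chat (lower row), drawn as boxes by their distance in kb from the Slc18a3 start in the direction of transcription. The Slc18a3 exon sits between the first Chat exon, 956 bases upstream, and the next, 395 bases downstream.

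Of 10 tested genes within 500 kb of Slc18a3, 1 was higher, 4 were lower and 5 were not called, with a median log2 fold change of -0.22. The others that were lower are Prrxl1, a homeobox gene, at 0.267 and 0.359 CPM in the clones against 8.39 CPM in the control, Ogdhl, at 12.2 and 10.9 CPM against 37.2 CPM, and Galnt15. Prrxl1, with 3 and 4 reads in the clones against 101 in the control, entered the test through the control, as did Gm2990. Parg and Timm23, in the same interval, had edgeR adjusted p-values of 0.130 and 0.525. Over all tested genes, 50.1% were called. The median log2 fold change of all 479 tested genes on chromosome 14 was -0.01. The medians of the other chromosomes that carry members lay between -0.08 on chromosome 5 and 0.12 on chromosome 17.

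Of the 2 cholinesterase genes, Ache was lower in the clones, and Bche was higher by a marginal call only. Ache, whose product ends cholinergic transmission at synapses, had 231 and 209 reads in the clones and 554 in the control. This is 20.5 and 18.8 CPM in the clones against 46.0 CPM in the control, with the clones close to each other and both below the control. The log2 fold change was -1.23 ± 0.10 (SE; edgeR adjusted p = 9.68e-08). The ratio of clone 2 to clone 1 was 0.913, with a counting interval of 0.754 to 1.11. Ache (chr5:137287519-137294466, plus strand) shares 98 exon bases with an antisense transcript, Gm42456. Gm42456 had no row, so no reads were assigned to it, and whether the counting used strand is not stated. Mir8116, a microRNA gene that overlaps the Ache span on the same strand, shares no exon bases with it. Mir8116 was called lower, with 26 and 24 reads in the clones against 51 in the control. Of 33 tested genes within 500 kb of Ache, 11 were higher, 16 were lower and 6 were not called, where 50.1% of all tested genes were called.

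Bche (chr3:73635808-73708415, minus strand), which encodes the cholinesterase better known from plasma and glia, had 16.4 and 18.3 CPM in the clones and 13.2 CPM in the control. Both clones were above the control. By counts the interval for clone 1 over the control (ratio 1.24, 0.996 to 1.54) included 1. That for clone 2 (ratio 1.39, 1.12 to 1.72) did not. The log2 fold change was 0.39 ± 0.15 (SE), at an edgeR adjusted p of 0.0414. This call is marginal: the adjusted p was 0.454 with DESeq2, 0.0530 with RLE size factors, 0.0575 with limma-voom and 0.530 in the authors' deposited table. By level, Ache exceeded Bche per kb 1.83-fold in clone 1 and 1.49-fold in clone 2, against 5.08-fold in the control, and the interval of the control (4.25 to 6.10) did not reach those of the clones (1.5 to 2.23 and 1.23 to 1.82). The summed level of both genes was 6.87 and 6.78 CPM per kb in the clones and 11.9 CPM per kb in the control.

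Genes that anchor the esterase or supply choline did not move as a block. Of 16 such genes, 13 were tested, 4 were higher, 5 were lower and 4 were not called, with a median log2 fold change of -0.10 against 0.002 over all tested genes. Among all tested genes, 24.3% were higher and 25.8% were lower. Colq, the collagen tail of synaptic acetylcholinesterase, had 22 and 17 reads in the clones and 3 in the control, and Prima1, the membrane anchor of the brain enzyme, had 2 and 4 reads against 20. Both passed edgeR (log2 fold change 2.75, adjusted p = 0.00260, and -2.58, adjusted p = 0.00178) but not DESeq2 (adjusted p = 0.118 and 0.217), and both were chosen after their values were seen. Colq entered the test through the clones and Prima1 through the control, so a difference was built into their being tested. Pcyt1b, an enzyme gene of phosphatidylcholine synthesis, fell to 11.8 and 9.61 CPM in the clones, against 27.3 CPM in the control. Gpcpd1, which acts in the release of choline from glycerophosphocholine, fell to 21.7 and 19.2 CPM against 34.7 CPM. Pnpla6, a phospholipase gene, rose to 41.1 and 44 CPM against 26.7 CPM, and the choline kinase gene Chka rose to 36.0 and 35.4 CPM against 25.3 CPM (DESeq2 adjusted p = 0.107).

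On the receiving side, 4 nicotinic subunit genes and the chaperone gene Ric3 were lower in the clones. Of 19 nicotinic subunit and accessory genes, 12 had a row and 8 were tested, of which 0 were higher, 5 were lower and 3 were not called. Of all tested genes, 25.8% were lower. Chrna3, 1 of the 5, entered the test through the control, so a difference was built into its being tested. The median log2 fold change of the 8 was -1.84. Chrnb2, the beta subunit of the main brain receptor, was at 3.47 and 1.80 CPM in the clones against 81.6 CPM in the control (log2 fold change -4.95 ± 0.16, SE; edgeR adjusted p = 5.66e-13). Ric3, a chaperone of nicotinic receptor assembly, was at 4.18 and 3.14 CPM against 77.3 CPM. Chrna3, the ganglionic alpha subunit, had 1 read in each clone against 84 reads in the control, and Chrna7, the homomeric alpha subunit, was at 1.96 and 2.96 CPM against 7.90 CPM. Of the muscle subunit genes, Chrnb1 stood at 13.8 and 12.3 CPM in the clones against 11.1 CPM in the control and was not called, Chrna1 and Chrne had at most 4 reads in a library, and Chrnd and Chrng had no row. Of the 5 muscarinic receptor genes, Chrm4 was the only one tested and stood at 5.87 and 5.30 CPM against 7.48 CPM (edgeR adjusted p = 0.131).

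Among the transcription factors, Lhx4 and Isl2 were lower in the clones, Pax6 was higher, and Mnx1 and Lhx3 were at the detection limit in all 3 libraries. Mnx1, which encodes the homeodomain factor HB9, had 1 and 3 reads in the clones and 1 in the control. Lhx3 had 0 reads in both clones and 1 in the control. No fold change is given for either, since every value is at or below 3 reads. Lhx4, a close relative of Lhx3, had 4 and 1 reads in the clones and 20 reads, or 1.66 CPM, in the control. Its log2 fold change was -2.84 ± 0.64 (SE; edgeR adjusted p = 0.00148; DESeq2 adjusted p = 0.189), and it was -4.06 without clone 1 and -2.19 without clone 2. By counts the pooled clones were 7.44-fold lower, with an interval of 2.71-fold to 25.4-fold.

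Isl2 (chr9:55538672-55546180, plus strand), a LIM homeodomain gene of postmitotic motor neurons, had 38 and 33 reads in the clones and 85 in the control. In CPM this was 3.38 and 2.96 in the clones against 7.06 in the control, with no overlap. The log2 fold change was -1.15 ± 0.26 (SE; edgeR adjusted p = 0.00137), but DESeq2 gave an adjusted p of 0.152 and a preset variation of 20% for all genes gave 0.0605. Isl1, its paralogue in the LIM code, moved the same way, with 2.05 and 1.53 CPM in the clones against 5.98 CPM (edgeR adjusted p = 0.000182; DESeq2 adjusted p = 0.0534).

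Pax6 (chr2:105668900-105697364, plus strand), a paired and homeodomain factor of neural progenitors, had 463 and 545 reads in the clones and 312 in the control. These are 41.2 and 48.9 CPM in the clones against 25.9 CPM in the control. Both clones were above the control, and clone 2 was also above clone 1 by counts (ratio 1.19, interval 1.05 to 1.35). The log2 fold change was 0.80 ± 0.11 (SE; edgeR adjusted p = 2.58e-05), higher than in 94.1% of tested genes. With a preset variation of 20% the adjusted p was 0.230. Elp4, Immp1l and Dnajc24, which lie within 500 kb of Pax6, had edgeR adjusted p-values of 0.925, 0.802 and 0.589. Rcn1, the other tested gene in that interval, was lower at 69.8 and 75.9 CPM in the clones against 89.9 CPM.

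The bases before the RefSeq starts of Slc18a3, Isl2 and Pax6 are shown because Slc18a3 had the largest fold change of the tested cholinergic genes, and because Isl2 and Pax6 moved in opposite directions among the factors. Each line gives 250 bases (GRCm38.p6), 5′ to 3′ on the gene's strand, at chr14:32464851-32465100 (minus), chr9:55540899-55541148 (plus) and chr2:105668646-105668895 (plus). The Slc18a3 window lies between the first exons of Chat, and the Isl2 window lies inside the longer Isl2 span that Gencode annotates, so it precedes the RefSeq start only. Capitals mark the cAMP response element TGACGTCA and the GC box GGGCGG on either strand.
Slc18a3: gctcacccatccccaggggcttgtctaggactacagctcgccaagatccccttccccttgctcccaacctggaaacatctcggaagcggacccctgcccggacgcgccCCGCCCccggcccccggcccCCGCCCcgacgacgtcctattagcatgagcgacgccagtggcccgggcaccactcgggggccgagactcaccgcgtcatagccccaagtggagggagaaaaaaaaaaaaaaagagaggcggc
Isl2: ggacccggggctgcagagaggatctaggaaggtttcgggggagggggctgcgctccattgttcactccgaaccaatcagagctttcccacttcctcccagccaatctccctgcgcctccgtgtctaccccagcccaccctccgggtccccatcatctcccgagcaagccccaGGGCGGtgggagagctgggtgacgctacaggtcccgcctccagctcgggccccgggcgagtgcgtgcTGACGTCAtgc
Pax6: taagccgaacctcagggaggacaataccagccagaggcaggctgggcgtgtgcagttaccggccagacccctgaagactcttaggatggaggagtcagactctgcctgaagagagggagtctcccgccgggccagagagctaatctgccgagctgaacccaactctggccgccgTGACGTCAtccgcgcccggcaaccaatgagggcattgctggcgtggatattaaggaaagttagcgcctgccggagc
The motifs were chosen after these windows had been read. The cAMP response element occurs at 1 place in the Isl2 window and 1 before Pax6, in the first of 2 Pax6 windows, and in 1.55% of 32851 RefSeq windows of this length. The GC box occurs at 2 places in the Slc18a3 window and 1 in the Isl2 window, and in 32.7% of all windows. It also occurs before Ache (4 places), Bche, Mnx1, Lhx3 and Lhx4. A homeodomain core, TAATTA, was in none of the windows of the 10 members and in 4.84% of all windows. The E-box CANNTG was found 1 time upstream of Slc18a3, 2 times upstream of Chat, and in 66.2% of all windows. It was also found before Slc5a7 (3 times), Ache, Bche, Mnx1, Lhx3 and Pax6, but not before Lhx4 or Isl2. Such matches describe the letters of these windows and not binding.

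Among the surrounding transcription factors, the progenitor and patterning list was sparse. Of 17 progenitor and patterning factors, 10 had no row, among them Nkx6-1, Nkx2-2 and Pax7, and 3 were tested. Olig2, the factor that defines motor neuron progenitors, had 0 and 4 reads in the clones and 3 in the control. Pax3, a dorsal patterning factor, rose to 65.9 and 63.0 CPM in the clones against 48.9 CPM in the control (DESeq2 adjusted p = 0.0821). Dbx2, an intermediate-domain factor, fell to 3.29 and 3.95 CPM against 6.73 CPM (DESeq2 adjusted p = 0.296), and Neurog2 stood at 1.07 and 1.44 CPM against 0.665 CPM (edgeR adjusted p = 0.191). Of 18 postmitotic and column factors, 16 had a row and 10 were tested. Of the 10, 4 were higher, 2 lower and 4 not called, with a median log2 fold change of -0.04. The share called over all tested genes was 50.1%. Besides Isl1, Etv1 was lower at 38.3 and 38.2 CPM against 58.3 CPM, and the factors Ebf3 (638 and 605 CPM against 490.3 CPM) and Etv4 (135 and 141 CPM against 110.0 CPM) were higher.

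LIM homeodomain proteins act in complexes assembled on the adaptor Ldb1, and all 10 cofactor genes considered were tested. Of these, 3 were higher, 2 were lower and 5 were not called, with a median log2 fold change of 0.05. Over all tested genes, 50.1% were called. Ldb1 rose to 144 and 141 CPM in the clones against 115 CPM in the control, and Ssbp4, which stabilises the adaptor, rose to 94.9 and 90.6 CPM against 65.8 CPM. The LIM-only genes Lmo2 and Lmo3, whose products compete for the adaptor, fell to 7.38 and 5.57 CPM against 13.5 CPM and to 0.445 and 0.539 CPM against 2.66 CPM, though neither call held with DESeq2 (adjusted p = 0.0564 and 0.114). Lmo3 entered the test through the control, so a difference was built into its being tested. Lmo4, at 81.7 and 84.5 CPM against 79.4 CPM, was not called.

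**Figure D4:**
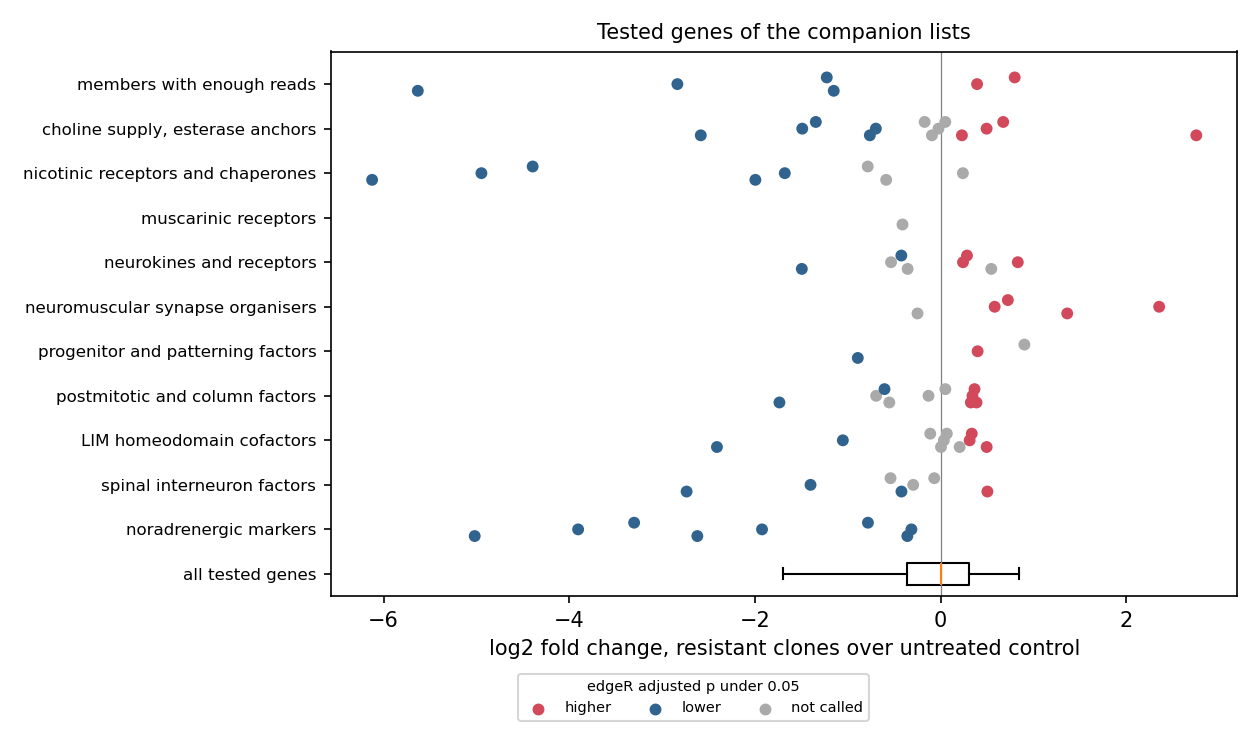
Log2 fold change of the clones over the control for each tested gene of 10 companion lists, coloured by whether edgeR called it higher, lower or neither, with the members in the top row. The box gives the quartiles of all 13705 tested genes and its whiskers the 5th and 95th percentiles. Nicotinic receptor genes and noradrenergic markers lie mostly left of 0 (medians -1.84 and -2.27), and LIM cofactors lie around 0 (median 0.05).

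The labelled motor neuron character was checked against markers of other cells. In the control, Chat, Slc5a7, Mnx1, Lhx3 and Olig2 had 7, 0, 1, 1 and 3 reads, while Ache, Slc18a3, Isl2, Isl1 and Lhx4 had 554, 113, 85, 72 and 20 reads. The noradrenergic list was also uneven in the control: Th, which encodes tyrosine hydroxylase, had 1347 reads, Slc18a2, Hand1 and Tfap2b had 11, 5 and 1 reads, and Slc6a2 had no row. Of 12 noradrenergic and sympathetic markers, 8 were tested and all 8 were called lower in the clones, where 25.8% of all tested genes were. Dbh, 1 of the 8, had 3 and 6 reads in the clones against 161 in the control. It entered the test through the control, so a difference was built into its being tested. The summed level of the 12 was 598 and 523 CPM in the clones against 1030 CPM in the control. Th was at 7.65 and 7.27 CPM in the clones against 112 CPM in the control. Of the 8, Hand2 and Phox2a fell least and held most of the summed level in the clones. Hand2 stood at 345 and 312 CPM against 409 CPM, and Phox2a at 183 and 157 CPM against 218 CPM. Of 18 factors of spinal interneurons, 7 were tested, with 1 higher (Lhx2, 25.8 and 29.1 CPM against 19.4 CPM) and 3 lower (Tlx3, Tal1 and Pax2). None of these 4 calls held with DESeq2 (adjusted p from 0.0716 to 0.296), and Tlx3 entered the test through the control. Over all tested genes, 50.1% were called.

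Glial and Schwann cell markers summed to 31.0 and 31.3 CPM in the clones and 54.0 CPM in the control, and 1 of 4 tested genes was called, Erbb3, which was lower. Aqp4 and Foxd3 had no row. Over all tested genes, 50.1% were called. Fibroblast markers summed to 97.9 and 129 CPM in the clones and 102 CPM in the control, with 2 of 7 tested genes higher (Pdgfrb and Col3a1) and 2 lower (Thy1 and Pdgfra), of which DESeq2 called only Pdgfrb. Myeloid markers summed to 3.91 and 4.40 CPM in the clones and 2.91 CPM in the control, 0 of 2 tested genes were called, and Itgam had no row. The part of such cells in the values above was not tested.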

How the data were processed

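Stranded mRNA libraries were made from total RNA, per the labels' protocols. The authors made the raw counts with the gene counting option of STAR, per the file headers, as whole reads per gene on Gencode M16 and GRCm38/mm10. The submitters' processing notes name STAR 2.5.3, bcl2fastq and DESeq2. The sources used here do not state which strand option was set. The deposited RPM values are counts scaled to the total of each library and rounded, and served to check the totals. They imply at most 2 reads outside the listed genes of a library. The authors' deposited table of clones against control gives log2 fold changes, a standard error (a score of uncertainty), p-values and adjusted p-values from DESeq2, per the file headers.

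Libraries were grouped by their labels, as 2 resistant clones and 1 control. The total counts of 11307034 to 11700755 put 3 reads at 0.249 to 0.269 CPM. Low counts were removed with filterByExpr, which left 13705 genes. The test was the two-sided quasi-likelihood F test of edgeR 4.0.16 in R 4.3.3 (legacy option off, TMM factors, Benjamini-Hochberg adjustment over all tested genes, threshold 0.05), with 1 residual degree of freedom. The standard error is the log2 fold change over the square root of F. Intervals are 95%, from the Poisson distribution for a level and the exact (Clopper-Pearson) binomial for a ratio. Exon lengths, positions and overlaps came from Gencode M21 on GRCm38, and upstream sequences from RefSeq on GRCm38.p6, where all 10 members had an entry.

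Alternatives were DESeq2 1.42.0, RLE size factors, no filter, a mean of at least 1 CPM, the legacy fit, limma-voom (limma 3.58.1), a prior count of 5 and leaving out each clone. A preset variation of 20% with edgeR's likelihood ratio test, and no filter with the legacy fit, were added after seeing the data. The members and lists were chosen with earlier results of these data known. Named genes are all members and, per list, up to 4 tested genes with the lowest edgeR p. Genes beside or overlapping a member, Lmo4, Chrnb1, Hand2 and Phox2a, and genes named for having few or no reads were chosen after their values were seen. Genes beside a member lie within 500 kb of it. Some genes of the companion lists are not reported here by name.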

Additional observations from a re-analysis of the deposited data

How the results depend on the processing

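Every tested member kept its direction under all alternatives. The number of members called was 6, and it was 3 with DESeq2, 3 with a preset variation of 20%, 0 without the low-count filter and 0 without the filter with the legacy quasi-likelihood (5 of 9 with an unadjusted p under 0.05 in both). It was 5 or 6 under the others run, where Lhx4 fell below a mean of 1 CPM and was not tested under that filter. Over all genes 6868 were called, against 3037 with DESeq2, 1148 with a preset variation of 20%, 4 without the filter (7087 with an unadjusted p under 0.05) and 0 without the filter with the legacy fit (6560 with an unadjusted p under 0.05). The cause of these losses was not tested. Of the 1148 calls with preset variation 156 were higher and 992 lower, a split unlike the 3334 and 3534 of the main test. Leaving out a clone gave a fold change without a test. No paired analysis was possible because the control has 1 library and its label carries no replicate number. Depth limits Chat, Slc5a7, Mnx1 and Lhx3, with 7 reads or fewer in each library.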

Other observations

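Of 8 genes that organise the neuromuscular synapse, 5 were tested, with 4 higher in the clones, 0 lower and 1 not called, where 24.3% of all tested genes were higher. Rapsn, 1 of the 4, entered the test through its reads in the clones, so a difference was built into its being tested. The median log2 fold change of the 5 was 0.72. Agrn, which encodes the agrin that motor axons release to cluster acetylcholine receptors, rose to 326 and 328 CPM in the clones against 198 CPM in the control (edgeR adjusted p = 2.07e-08). Lamb2, the laminin beta subunit of the synaptic basal lamina, rose to 281 and 266 CPM against 106 CPM. Rapsn, the receptor-clustering rapsyn gene, had 8 and 12 reads in the clones against 2 in the control, and Erbb2, a neuregulin co-receptor gene, stood at 9.07 and 9.34 CPM against 6.15 CPM, but DESeq2 called neither (adjusted p = 0.373 and 0.407). Musk, the agrin receptor kinase gene of muscle, had no row.

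Cytokines of the LIF and CNTF family, known to switch sympathetic neurons to a cholinergic state, and their receptors numbered 9 genes, of which 8 were tested, 3 higher, 2 lower and 3 not called. The share called over all tested genes was 50.1%. The shared receptor gene Il6st stood at 105 and 109 CPM in the clones against 88.0 CPM, Cntfr at 58.3 and 64.6 CPM against 52.0 CPM, Clcf1 at 9.25 and 10.9 CPM against 5.65 CPM, and Ctf1 at 1.33 and 2.78 CPM against 5.82 CPM. All 4 passed edgeR (adjusted p from 0.00148 to 0.0278) and none passed DESeq2 (adjusted p from 0.124 to 0.389).

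The genes whose levels over the 3 libraries most resembled those of a member were found by the Euclidean distance of log2 ratios to the gene's mean, with 0.5 CPM added, among 11719 named genes averaging 1 CPM or more. For Slc18a3 they were Cplx1 (distance 0.041), L1cam (0.064) and Mir9-3hg (0.10). The log2 fold changes of these genes were -4.21, -3.82 and -7.09, against -5.63 for Slc18a3. A small distance with 0.5 CPM added therefore does not mean an equal fold change. For Ache they were Alg13 (0.0091), Tmem229b (0.010) and Map3k21 (0.012), and for Pax6 Rhot2 (0.018), Clcf1 (0.018) and Nde1 (0.022). With 3 libraries many genes share such a shape.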
